A study of Mus musculus with 10 samples.

Results

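The genes described here encode the ligands and receptors of the vascular endothelial growth factor (VEGF) family: the ligands Vegfa, Vegfb, Vegfc, Vegfd and Pgf, the receptor tyrosine kinases Flt1, Kdr and Flt4, and the co-receptors Nrp1 and Nrp2. They were taken by name from the table of gene expression values, 10 of 54532 genes, and all 10 passed the filter on low values. Lungs of wild-type C57/BL6 mouse pups, male or female, were profiled by bulk RNA-sequencing at postnatal day 14 (P14). In the IncPBF group (increased pulmonary blood flow, 5 lungs), a needle puncture from the abdominal aorta into the inferior vena cava at P7 had made a fistula. The sham group (5 lungs) had its abdomen opened at P7 too, with both vessels left intact. The comparison asks how the VEGF family is expressed in lungs that had received excess flow for the days of alveolar formation between the surgery and P14.

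VEGF-A, made in the lung mainly by alveolar epithelium, binds KDR (VEGFR2), the main signalling receptor of blood vessel endothelium, and FLT1 (VEGFR1), which binds it tightly but signals weakly and also exists as a soluble decoy. VEGF-B and PlGF, the product of Pgf, bind FLT1. VEGF-C and VEGF-D are cut from precursors and then bind FLT4 (VEGFR3), best known from lymphatic vessels, while the neuropilins NRP1 and NRP2 hold ligand and receptor together. The family is known for building the capillary bed that surrounds the growing alveoli.

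The libraries held 16103423 to 20318525 fragments on genes per lung. The deposited unit is FPKM, the fragments on a gene scaled to its length in kilobases and to a library size. This size, as implied by the values, was 1.02 to 1.07 times the fragments on genes in the IncPBF lungs. In the sham lungs it was 0.958 to 1.03 times, so it was not a plain count of fragments. How it was set is not given in the sources used here. On a gene of 1 kb, 1 fragment was worth 0.0482 to 0.0580 FPKM. The groups also differed in sex-linked expression. Xist, the RNA of the inactive X chromosome, stood at 52.4 to 66.5 FPKM in IncPBF lungs 2 to 5, and at no more than 0.0770 FPKM in IncPBF lung 1 and in the 5 sham lungs. Ddx3y, a gene of the Y chromosome, was the mirror image, with 18.6 FPKM in IncPBF lung 1, 21.8 to 24.6 FPKM in the sham lungs and no more than 0.00926 FPKM in the other IncPBF lungs. The differences of the 10 genes are therefore given with log2 Xist as a covariate and for IncPBF lung 1 alone as well. Marker genes and single pathway genes are given from the fit without the covariate, except where stated. Many of their calls did not hold with it, such as Cdh5, Ager, Acta2, Nr4a1 and Hif1a (limma, adjusted p = 0.226, 0.122, 0.162, 0.294 and 0.121). Prkca, Ptprb and Epas1 passed with it (limma, adjusted p = 0.0272, 0.0464 and 0.0378). The labels do not say that the lungs of a group came from separate litters, and the p-values measure only the spread between these lungs, part of which may be technical.

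The stretches of genome just before the starts of 4 genes are shown because these genes carry the main contrasts below: Vegfa as the most abundant ligand, Vegfd as the ligand that fell most, and Flt1 and Kdr as receptors of the same ligand that moved apart. Sequences are from RefSeq on GRCm38.p6, 5′ to 3′ on the strand of the gene, and all 10 genes had an entry. Each runs over 250 bases before the RefSeq start, kept only as far as it lies before the start of the deposited gene. Capitals mark the core of the HIF binding site (ACGTG or GCGTG) and the GC box (GGGCGG), on either strand.
Vegfa, chr17:46032378-46032627, minus strand: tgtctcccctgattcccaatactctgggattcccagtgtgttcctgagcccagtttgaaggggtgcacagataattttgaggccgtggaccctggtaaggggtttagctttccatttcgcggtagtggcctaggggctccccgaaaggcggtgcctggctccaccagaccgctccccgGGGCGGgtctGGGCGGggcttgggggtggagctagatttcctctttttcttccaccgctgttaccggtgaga
Vegfd, chrX:164373272-164373377, plus strand: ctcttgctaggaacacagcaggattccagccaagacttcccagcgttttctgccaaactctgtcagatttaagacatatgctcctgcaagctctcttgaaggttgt
Flt1, chr5:147726012-147726261, minus strand: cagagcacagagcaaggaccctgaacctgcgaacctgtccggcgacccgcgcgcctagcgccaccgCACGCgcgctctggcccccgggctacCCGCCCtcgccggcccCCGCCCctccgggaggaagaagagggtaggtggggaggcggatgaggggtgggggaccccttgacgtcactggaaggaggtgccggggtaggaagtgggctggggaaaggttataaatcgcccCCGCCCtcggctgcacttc
Kdr, chr5:75978459-75978705, minus strand: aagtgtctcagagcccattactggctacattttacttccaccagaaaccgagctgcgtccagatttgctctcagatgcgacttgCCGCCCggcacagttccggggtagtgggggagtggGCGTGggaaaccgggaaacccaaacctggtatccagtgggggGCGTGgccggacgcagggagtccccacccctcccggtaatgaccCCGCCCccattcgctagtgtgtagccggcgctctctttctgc

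In the whole windows of 250 bases, 9 of the 10 genes had a GC box, and Vegfd was the exception. Of 32851 such windows in the reference table, 32.7% had one. Not all of the 10 windows lie before the deposited gene. Those of Pgf, Flt4 and Nrp1 lie wholly inside it, with RefSeq starts 477, 416 and 469 bases from its start. Those of Vegfd, Nrp2 and Kdr reach 144, 32 and 3 bases into it. The HIF core was found in 6 of the 10 windows, against 38.6% of all windows, and it was absent from those of Vegfa, Vegfc, Vegfd and Flt4. The share of G and C ran from 42.4% for Vegfd to 76.4% for Vegfb, with a median of 52.4% over all windows. These matches describe letters only, within windows of 250 bases. Sites farther from the starts were not searched, and binding was not measured.

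In the IncPBF lungs 6 of the 10 genes were lower than in the sham lungs: the ligands Vegfa, Vegfc and Vegfd, the receptors Flt1 and Flt4, and the co-receptor Nrp1. The ligand Pgf was higher. Vegfb, Kdr and Nrp2 did not pass the test, which was limma on log2(FPKM + 0.1) with p-values adjusted over the 15388 genes tested. Of all genes tested, 16.2% were called lower and 16.1% higher. The median log2 difference of the 10 genes was -0.38, and that of all genes tested was 0.01. The groups did not overlap for 5 of the 10 genes, all lower in IncPBF, and did not overlap in this direction for 11.2% of all genes tested. In bulk tissue, fewer cells of a type and less RNA per cell cannot be told apart.

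**Figure D1:**
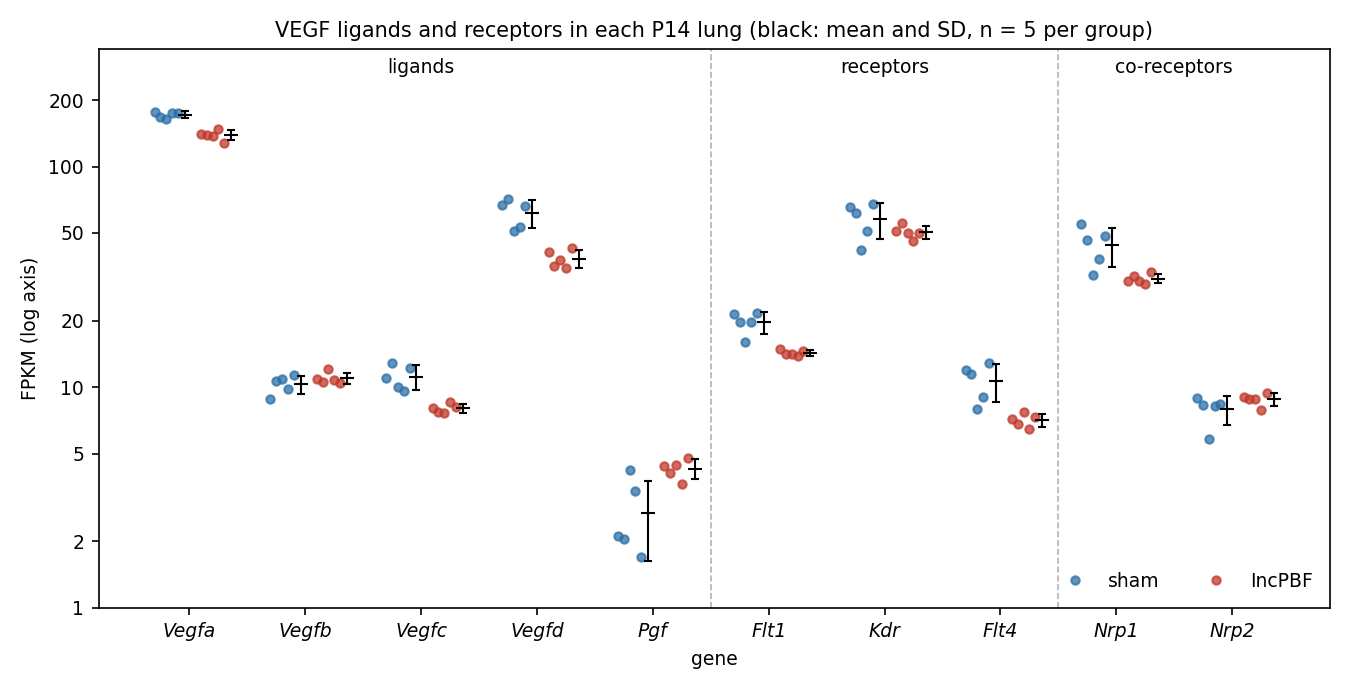
FPKM on a log axis for each of the 10 genes, with 1 point per lung (sham blue, IncPBF red) and the mean and SD of each group in black (n = 5). The groups lie apart for Vegfa, Vegfc, Vegfd, Flt1 and Flt4, and the sham lungs scatter more widely than the IncPBF lungs in 9 of the 10 genes.

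Levels per length spanned from a few FPKM for Pgf to well over 100 FPKM for Vegfa. In the sham lungs Vegfa led with 172 FPKM on average. Vegfd, Kdr and Nrp1 followed, at 61.6, 57.6 and 44.0 FPKM, and each overlapped the next in its range over lungs. Flt1 came next at 19.7 FPKM without overlap with its neighbours. Vegfc, Flt4, Vegfb and Nrp2 lay between 7.94 and 11.1 FPKM, with ranges that overlapped from one to the next, and Pgf was lowest at 2.69 FPKM. In the IncPBF lungs Kdr ranked above Vegfd without overlap, and Vegfb and Nrp2 ranked above Vegfc and Flt4. There the ranges of Nrp2, Vegfc and Flt4 overlapped from one to the next.

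Among the ligands, Vegfa (chr17:46016993-46032369) was expressed at 140.7, 139.5, 138.1, 148.7 and 128.0 FPKM in IncPBF lungs 1 to 5. The sham lungs 1 to 5 had 177.6, 167.1, 163.8, 175.5 and 174.9 FPKM. All 5 IncPBF lungs lay below all 5 sham lungs, and the spread within each group was small. The means were 139 ± 7.39 and 172 ± 5.98 FPKM (SD, n = 5). The log2 difference was -0.31 ± 0.05 (SE), with an adjusted p of 0.00165 by limma. An exact permutation test over every way of assigning the lungs (two-sided) gave p = 0.00794, the smallest this design allows. The table counts the gene as a whole, so the 8 annotated protein-coding transcripts of Vegfa, which give isoforms of different affinity for the matrix, cannot be told apart.

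Vegfd (chrX:164373378-164402650), also called Figf, fell most among the ligands. The IncPBF lungs had 41.0, 35.5, 37.5, 34.7 and 42.7 FPKM, and the sham lungs 66.7, 71.0, 51.1, 53.2 and 66.1 FPKM. The highest IncPBF lung was below the lowest sham lung, sham lung 3. The log2 difference was -0.68 ± 0.10 (SE; limma, adjusted p = 0.000606). Vegfd is X-linked, and IncPBF lung 1, the one low in Xist, had 41.0 FPKM, within the range of the other IncPBF lungs and below every sham lung. With log2 Xist as a covariate its log2 difference was -0.55.

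Vegfc (chr8:54077606-54187096), the ligand of FLT4 in lymphatic growth, was lower too. Its values were 8.07, 7.76, 7.65, 8.59 and 8.10 FPKM in the IncPBF lungs, against 11.0, 12.9, 10.02, 9.57 and 12.2 FPKM in the sham lungs. The groups did not overlap, and sham lungs 3 and 4 were nearest to the IncPBF lungs. The log2 difference was -0.46 ± 0.08 (SE; limma, adjusted p = 0.00183).

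Pgf (chr12:85166635-85177790), a ligand of FLT1 known for low levels in resting adult tissue, moved the other way. The IncPBF lungs had 4.40, 4.10, 4.44, 3.63 and 4.79 FPKM and the sham lungs 2.11, 2.05, 4.21, 3.39 and 1.70 FPKM. Sham lung 3 reached into the IncPBF range, and sham lung 4 stood between it and the other sham lungs. The log2 difference was 0.72 ± 0.21 (SE; limma, adjusted p = 0.0244), on 86 to 289 fragments per lung. The call was lost without IncPBF lung 5 or without sham lung 1, 2 or 5, and over the 10 lungs left out in turn the limma adjusted p ran from 0.00289 to 0.0584.

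Vegfb (chr19:6982473-6987651), the other ligand of FLT1, was at 11.0 ± 0.679 FPKM in IncPBF and 10.3 ± 0.983 FPKM in sham (SD, n = 5). The groups overlapped, and the log2 difference of 0.09 did not pass the test (limma, adjusted p = 0.359; exact permutation p = 0.270). It was 0.04 without sham lung 1 and 0.06 without IncPBF lung 3. Of the summed ligand FPKM, Vegfa made up 69.3% in IncPBF and 66.8% in sham, Vegfd 19.1% and 23.9%, and Pgf 2.13% and 1.06%. These shares are given without a test.

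Among the receptors, Flt1 (chr5:147561604-147726011) had 14.8, 14.1, 14.1, 13.8 and 14.6 FPKM in the IncPBF lungs. The sham lungs had 21.5, 19.6, 16.1, 19.7 and 21.7 FPKM. The groups did not overlap, and the IncPBF lungs lay within about 1 FPKM of each other. The log2 difference was -0.46 ± 0.08 (SE; limma, adjusted p = 0.00129). The soluble decoy and the membrane receptor share the gene's count and cannot be told apart.

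Kdr (chr5:75932827-75978458), the main signalling receptor for VEGF-A, had 51.1, 55.7, 49.9, 46.1 and 49.8 FPKM in IncPBF and 65.6, 61.5, 41.9, 51.2 and 67.8 FPKM in sham. Sham lung 3 was the lowest of all 10 lungs, and sham lung 4 lay among the IncPBF lungs. The log2 difference of -0.17 ± 0.12 (SE) did not pass the test (limma, adjusted p = 0.311). Without sham lung 3 it was -0.28 and passed (limma, adjusted p = 0.0314).

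Flt4 (chr11:49609263-49652739), the receptor of VEGF-C and VEGF-D, had 7.16, 6.82, 7.72, 6.46 and 7.34 FPKM in the IncPBF lungs. In the sham lungs it had 12.0, 11.4, 7.96, 9.01 and 12.9 FPKM. The groups did not overlap, although sham lung 3 was close to the highest IncPBF lung. The log2 difference of -0.56 ± 0.12 (SE) was the largest among the receptors (limma, adjusted p = 0.00553).

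The co-receptors differed from each other. Nrp1 (chr8:128358604-128503363), the neuropilin best known for binding VEGF-A together with KDR, had 30.3, 32.1, 30.2, 29.4 and 33.2 FPKM in IncPBF and 54.8, 46.3, 32.3, 37.98 and 48.6 FPKM in sham. Only sham lung 3 reached into the IncPBF range. The log2 difference was -0.48 ± 0.12 (SE; limma, adjusted p = 0.0122). Nrp2 (chr1:62703285-62818695), the neuropilin known for binding VEGF-C, had 8.81 ± 0.555 FPKM in IncPBF and 7.94 ± 1.20 FPKM in sham (SD, n = 5). The groups overlapped, and the log2 difference of 0.16 ± 0.10 (SE) did not pass the test (limma, adjusted p = 0.262), and was 0.06 without sham lung 3. The annotation places Gm37121 and Gm29083 across parts of the Nrp2 locus, both near 0, and how their shared fragments were counted is not given in the sources used here.

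In 7 of the 10 genes sham lung 3 was the sham lung closest to the IncPBF mean, and in 2 it was sham lung 4. Within groups, the levels of the receptors and co-receptors went together: over the 10 lungs as deviations from their group means, Kdr had r = 0.88 with Flt1, 0.91 with Flt4 and 0.93 with Nrp1. Pgf went against them, with r = -0.86 with Kdr. Vegfa followed none of the receptors closely, with r = 0.25 with Kdr and 0.34 with Flt1. These correlations describe lungs that share a library for each pair of values, and no test was made.

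The differences were then read with the sex-linked expression taken into account. With log2 Xist as a covariate, the sign of the difference was kept in 10 of 10 genes. The log2 differences were -0.29 for Vegfa, -0.43 for Vegfc, -0.38 for Flt1, -0.51 for Flt4, -0.47 for Nrp1 and 0.71 for Pgf. In that fit 0 of the 10 genes had a limma adjusted p under 0.05, against 4.82% of all genes tested. At an unadjusted p under 0.05 it called 5, Vegfa, Vegfc, Vegfd, Flt1 and Flt4, against 20.6% of all genes tested. IncPBF lung 1 was outside the range of the sham lungs in 8 of the 10 genes, as in 51.8% of all genes tested, and within the range of the other IncPBF lungs in 9 of the 10, with Flt1 the exception. Set alone against the 5 sham lungs it gave the same sign in 10 of 10 genes and, by limma, 0 adjusted calls (1.00% of all genes tested) and 4 calls at an unadjusted p under 0.05 (16.6% of all genes tested). With 4 of the 5 IncPBF lungs high in Xist and no such sham lung, the surgery and the sex-linked difference cannot be told apart in full.

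**Figure D2:**
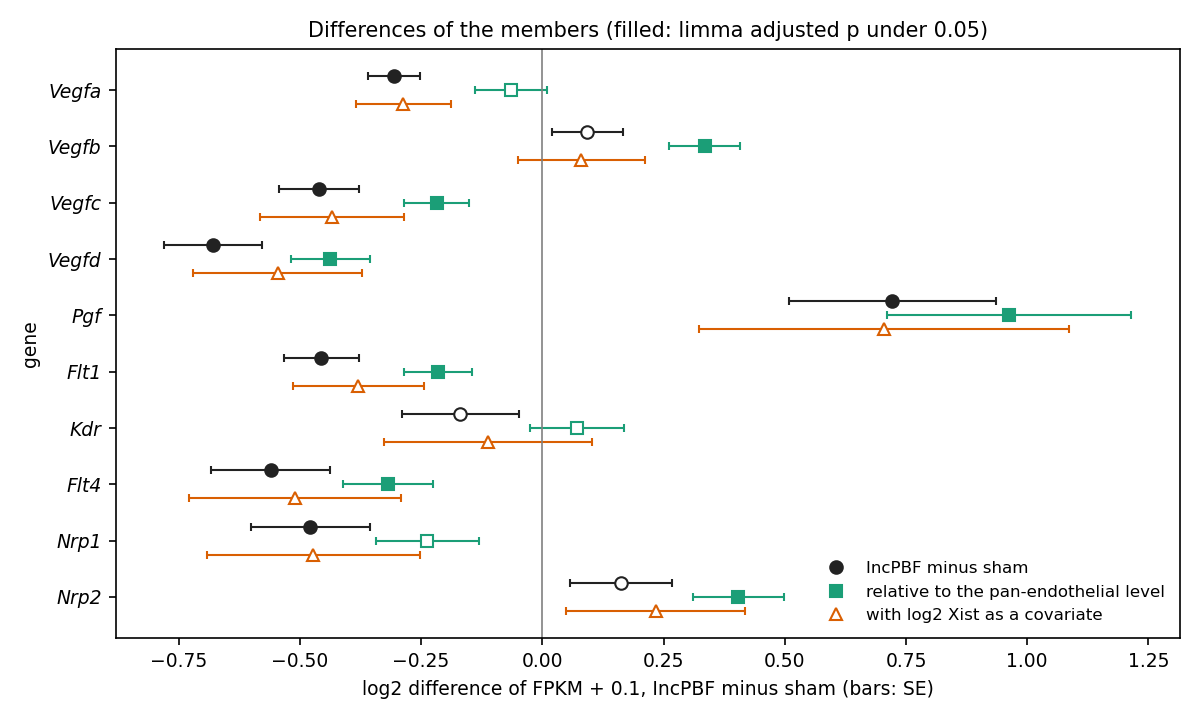
Log2 difference of FPKM + 0.1 between IncPBF and sham for each gene, with its SE as a bar, in 3 limma fits: all lungs (circles), relative to the pan-endothelial level (squares) and with log2 Xist as a covariate (triangles). Filled symbols passed an adjusted p of 0.05; with the covariate the points stay near the circles, their bars widen and 0 of 10 pass, and against the endothelial level Vegfa and Kdr lie near 0.

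Markers of the cells that carry the receptors were lower as well, beside 16.2% of all genes tested called lower and 16.1% higher. Of 13 pan-endothelial genes, 9 were called lower and 1 higher, among them Cdh5, the cadherin of endothelial junctions, at 248 ± 15.5 FPKM in IncPBF and 339 ± 50.7 FPKM in sham (SD, n = 5). Cldn5, a tight junction protein, was at 428 ± 33.0 and 405 ± 62.9 FPKM and did not pass. The mean log2 level of the list was lower by 0.24 in IncPBF without overlap of the groups (exact permutation p = 0.00794). Of 8 markers of aerocytes, the capillary cells of gas exchange, 6 were lower, and of 6 markers of general capillary cells 3 were lower. Of 5 lymphatic markers tested, 2 were lower, Lyve1 (78.0 against 137 FPKM) and Pdpn (46.1 against 59.5 FPKM). Which cells carried them was not measured. Prox1, the transcription factor that defines lymphatic endothelium, was far lower in level, at 0.601 FPKM in IncPBF and 0.627 FPKM in sham, and did not pass the test.

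Set against the pan-endothelial level, 4 of the 10 genes remained lower. These were Vegfd with a log2 difference of -0.44 (limma, adjusted p = 0.00152), Flt4 with -0.32 (0.0151), Vegfc with -0.22 (0.0205) and Flt1 with -0.21 (0.0266). On this scale 5.22% of all genes tested were called lower and 40.9% higher, since the median difference of all genes became 0.26. Pgf, Nrp2 and Vegfb were called higher, with 0.96, 0.40 and 0.33. Vegfa (-0.06), Kdr (0.07) and Nrp1 (-0.24) did not pass the test. The call of Vegfc was lost without sham lung 2, that of Flt1 without IncPBF lung 3 or 4 or sham lung 1 or 4, and Nrp1 was called, at -0.31, without sham lung 3. With log2 Xist as a covariate 0 of the 10 genes were called lower and 0 higher on this scale by limma, and with the replicate block Vegfc did not pass (limma, adjusted p = 0.0648).

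Vegfa was also set against the alveolar type 1 (AT1) cells, a known source of it. Of 8 AT1 markers, 7 were lower in IncPBF. The most abundant was Ager, the receptor for advanced glycation end products, at 584 ± 11.0 FPKM against 853 ± 114 FPKM in sham (SD, n = 5). The mean log2 level of the 8 markers was lower by 0.47 (exact permutation p = 0.00794). Relative to it, Vegfa had a log2 difference of 0.16 and did not pass the test (limma, adjusted p = 0.213). Within groups the level of Vegfa followed neither the AT1 level (r = 0.11, 10 lungs) nor the pan-endothelial level (r = 0.12), whereas Kdr went with the AT1 level (r = 0.87). Relative to the AT1 level 64.2% of all genes tested were called higher and 2.31% lower. Of the 10 genes, Pgf, Nrp2, Vegfb and Kdr were called higher. Vegfd, at -0.21, was the 1 called lower (limma, adjusted p = 0.0479), a call that was lost without any 1 of 8 of the 10 lungs and kept without IncPBF lung 3 or sham lung 5.

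The proportions between members within a lung do not depend on the library size. Of 6 ratios compared, all differed between the groups by exact permutation tests (two-sided), with Benjamini-Hochberg adjusted p over the 6 of 0.0119 or 0.0159. No share over other pairs of genes was measured to set beside this count. The ratios are made from the same values as the single genes, and are not separate support for those differences. Flt1 to Kdr was 0.253 to 0.299 in IncPBF and 0.319 to 0.385 in sham, a log2 difference of -0.29. Nrp1 to Kdr was 0.576 to 0.666 in IncPBF and 0.716 to 0.837 in sham, a log2 difference of -0.31. Neither ratio overlapped between the groups, so the levels of Flt1 and Nrp1 fell against that of Kdr in every IncPBF lung.

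Nrp2 to Flt4 showed the clearest separation between receptors. It was 1.14 to 1.30 in IncPBF and 0.652 to 0.909 in sham, a log2 difference of 0.73. Sham lung 3, low in both genes, stood among the other sham lungs on this ratio. Vegfb to Vegfa rose by 0.40 on the log2 scale without overlap. Pgf to Vegfa (1.05) and Vegfc to Vegfd (0.22) were higher in IncPBF with overlap of the groups, each with an exact permutation p of 0.0159. For IncPBF lung 1 alone against the sham lungs, Vegfc to Vegfd, whose denominator is X-linked, had a log2 difference of 0.12, and its ratio of 0.197 lay just above the highest sham lung, at 0.196. IncPBF lung 1, low in Xist, was within the range of the other IncPBF lungs on these ratios, with 0.290 for Flt1 to Kdr and 1.27 for Nrp2 to Flt4.

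**Figure D3:**
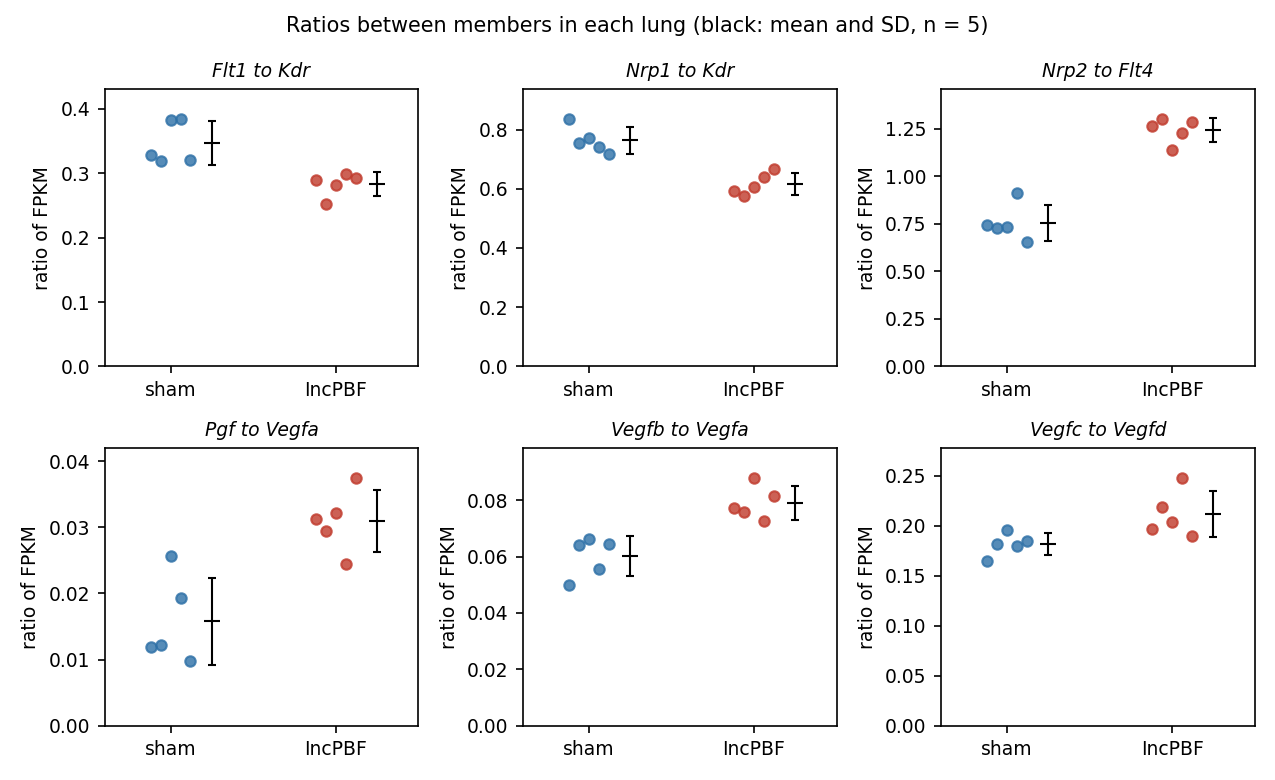
Ratio of the FPKM of 2 members in each lung, on axes that start at 0, with sham in blue, IncPBF in red and the mean and SD in black (n = 5). Flt1 to Kdr and Nrp1 to Kdr are lower in every IncPBF lung than in any sham lung, Nrp2 to Flt4 and Vegfb to Vegfa are higher, and the last 2 ratios, Pgf to Vegfa and Vegfc to Vegfd, overlap.

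Around the members, 6 lists of pathway genes were read in the same fit. Of 97 genes 94 were tested, 30 were lower and 17 higher, with a median log2 difference of -0.11. Of all genes tested, 16.2% were called lower and 16.1% higher, so the share called higher was near that of all genes. The counts of each list below stand beside the same shares. With log2 Xist as a covariate 10 of the pathway genes were called lower and 3 higher, against 4.82% of all genes tested in either direction. In the signalling chain below KDR, 9 of 27 genes were lower and 2 higher. Prkca, the protein kinase C that links PLCγ to the MAP kinases, was at 6.20 ± 0.270 FPKM in IncPBF and 12.8 ± 2.21 FPKM in sham (SD, n = 5), a log2 difference of -1.01 (limma, adjusted p = 9.09e-05). Sphk1, which makes sphingosine 1-phosphate, and Hspb1, a heat shock protein of the actin response, both fell by 0.82. The focal adhesion proteins Bcar1 and Ptk2 rose by 0.28 and 0.17.

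Of 18 genes for partners and traffic of the receptors, 6 were lower and 1 higher. Ptprb, the phosphatase VE-PTP that restrains KDR and TIE2, was at 54.9 ± 4.95 FPKM in IncPBF and 98.5 ± 15.2 FPKM in sham, a log2 difference of -0.83 (limma, adjusted p = 0.000175). Epn2, an epsin that carries KDR into the cell, fell by 0.71, and Sema3f, a semaphorin that competes for NRP2, fell by 0.61. Itgav, an integrin subunit, rose by 0.21.

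Of 8 genes whose products ready VEGF-C and VEGF-D for their receptor, 4 were lower, 1 was higher and 3 (Pcsk5, Pcsk7 and Plau) did not pass the test. Ccbe1, the cofactor of cleavage, fell by 0.81, and the proteases Adamts14 and Adamts3 fell by 0.69 and 0.68. Their levels were low, with 1.39 against 2.54 FPKM for Ccbe1 and 0.416 against 0.729 FPKM for Adamts3. The IncPBF level of Adamts3 was under the filter of 0.5 FPKM, which it passed only through the sham lungs. Furin, the proprotein convertase, was the fourth, at 18.3 ± 1.14 against 22.6 ± 3.27 FPKM (SD, n = 5). Plat, tissue plasminogen activator, rose by 0.45.

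The subunits of the hypoxia-inducible factors (HIF), which drive Vegfa in low oxygen, moved in both directions. Epas1, or HIF-2α, the subunit abundant in lung endothelium, was at 394 ± 7.97 FPKM in IncPBF and 638 ± 74.5 FPKM in sham, a log2 difference of -0.69 (limma, adjusted p = 0.000198). Hif3a, a subunit with isoforms that restrain the others, was at 0.627 ± 0.299 against 7.08 ± 1.56 FPKM (SD, n = 5) and fell by 3.36. Hif1a rose by 0.25, to 22.9 ± 1.34 from 19.2 ± 0.565 FPKM. Egln3, an oxygen-sensing hydroxylase that is itself a HIF target, rose by 1.99. Arnt2, a partner subunit, rose by 1.42, to 1.01 ± 0.0943 from 0.321 ± 0.0922 FPKM (SD, n = 5). Its low sham level was under the filter of 0.5 FPKM, which it passed only through the IncPBF lungs. With log2 Xist as a covariate Arnt2 did not pass the test (limma, adjusted p = 0.0612). Egln2 fell by 0.30. Of 17 HIF target genes other than Vegfa, 7 were lower and 4 higher. Bnip3, a mitophagy receptor, fell by 0.88, Ndrg1 by 0.41 and Pfkfb3, which sets the pace of glycolysis in endothelium, by 0.39. Ankrd37 rose by 0.51, and the glycolytic genes Ldha and Pgk1 rose by 0.36 and 0.26. Pgk1 is X-linked, and with log2 Xist as a covariate it did not pass the test (limma, adjusted p = 0.135). In that fit Bnip3 and Ndrg1 passed, while Pfkfb3, Ankrd37 and Ldha did not.

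Of 14 tested genes known to be induced by VEGF in cultured endothelium, 6 were higher, 1 was lower and 7 did not pass the test, with a median log2 difference of 0.47. Nr4a1, an immediate early nuclear receptor, was at 32.8 ± 21.2 FPKM in IncPBF and 6.37 ± 2.05 FPKM in sham (SD, n = 5), a log2 difference of 2.12 (limma, adjusted p = 0.0036). Rcan1, a calcineurin regulator, was at 44.2 ± 0.666 against 26.5 ± 2.02 FPKM, and Hlx, a homeobox gene, rose by 0.99. Dll4, the Notch ligand of tip cells, was at 26.8 ± 3.05 and 28.3 ± 2.51 FPKM and did not pass the test. Apln, the X-linked apelin gene, was the 1 called lower and fell by 0.24 (limma, adjusted p = 0.0493), a call that was lost under 15 of 23 alternatives, 1 of which leaves out genes on chromosomes X and Y, and among them the replicate block, log2 Xist as a covariate (limma, adjusted p = 0.574) and the omission of any of the 5 IncPBF lungs or of sham lung 2, 4 or 5. Many of these genes also respond to other stimuli and are expressed outside endothelium, and their source was not measured.

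**Figure D4:**
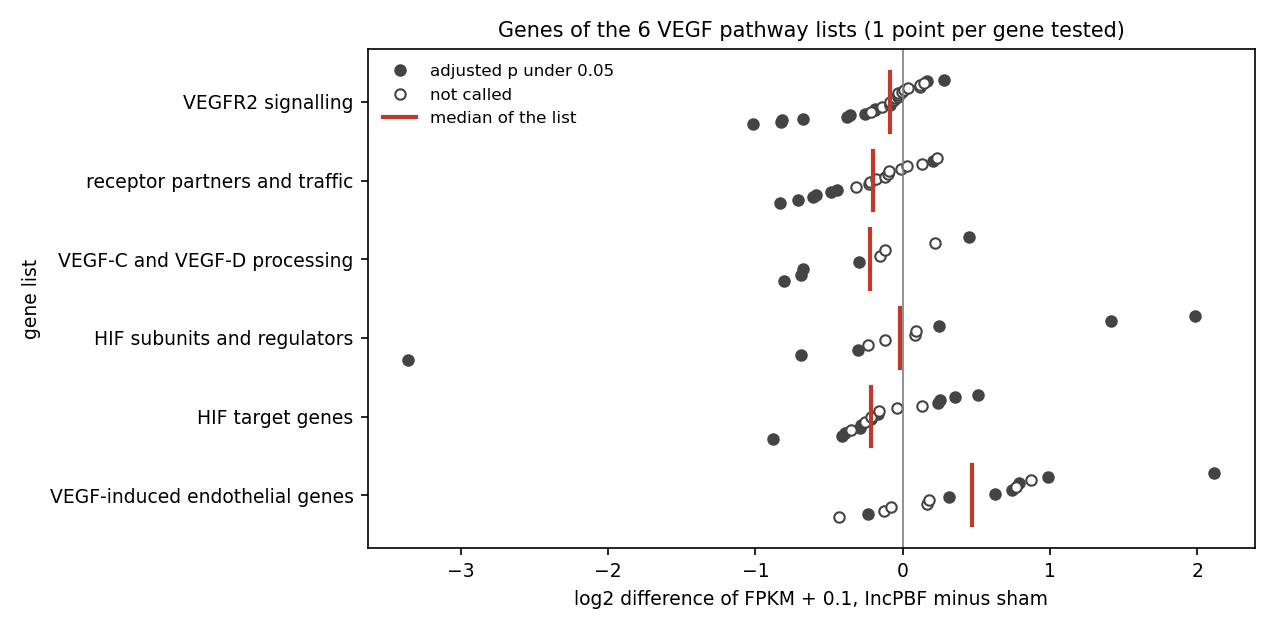
Log2 difference of FPKM + 0.1 between IncPBF and sham for each tested gene of the 6 pathway lists, filled where the limma adjusted p was under 0.05, with the median of each list as a red line. The median is below 0 in 5 of the lists and lies at 0.47 for the VEGF-induced genes, and Hif3a is the point at -3.36.

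Markers of other cells also moved with the groups. Red blood cell genes summed to 250.9 to 1927 FPKM in IncPBF and to 1458 to 2442 FPKM in sham, and 3 of 5 were called lower. Of 6 genes of myofibroblasts and smooth muscle, 3 were higher and 1 was lower. Acta2, smooth muscle actin, was higher, at 313 ± 76.6 against 108 ± 36.0 FPKM (SD, n = 5). Pdgfra was the 1 called lower, at 22.4 ± 3.42 against 58.1 ± 12.4 FPKM, a log2 difference of -1.36 (limma, adjusted p = 9.01e-05). Of 7 genes of alveolar fibroblasts 4 were lower, 0 were higher and 3 did not pass the test. The mean log2 difference of the list was -0.67 without overlap of the groups, but its median was -0.27. Inmt, a methyltransferase with the largest fall of the list, was at 64.8 ± 23.2 against 502 ± 122 FPKM (SD, n = 5), a log2 difference of -2.99 (limma, adjusted p = 1.76e-05). Of 7 alveolar type 2 genes 4 were lower, with a mean of -0.43, and of 3 mesothelial genes tested 3 were lower. Of 6 pericyte genes 2 were lower, and of 6 adventitial fibroblast genes 2 were higher. Of 20 macrophage, neutrophil, ciliated cell and cardiac muscle genes tested, 0 were called by limma, and 2 had an unadjusted p under 0.05. The part of these shifts in the results on the VEGF genes was not tested.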

How the data were processed

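Lungs of 5 IncPBF and 5 sham mice were profiled by RNA-sequencing of total RNA (NEBNext libraries, NovaSeq). The authors deposited gene values as FPKM with the gene length. The submitters' processing notes name Bowtie 0.12.2 and the builds GRCm38, mm10 and hg38, and the counting software is not given in the sources used here. Coordinates are those of the deposited table, and all 10 members had the same positions in GENCODE M21 on GRCm38. The sample titles and the table abbreviate the IncPBF group differently, and its columns were matched by time point and replicate number, as the only ones not named sham. FPKM times length was a whole multiple of 1 step for 100% of the nonzero values of up to 1000 fragments (tolerance 0.01). Larger values were not checked. The step gave the fragments per gene.

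The filter on low values kept genes whose mean FPKM over the 10 lungs reached 0.5. The main test was limma 3.58.1 in R 4.3.3 (eBayes with a trend, no covariates), fitted to log2(FPKM + 0.1), and p-values were adjusted by Benjamini-Hochberg over all 15388. A fold change on this scale understates that of low genes. For the relative comparisons, the mean log2 level of the marker list was subtracted in each lung. Single values and ratios were compared by exact permutation in scipy 1.17.1. The test was tested on simulated data for this comparison over 15388 genes. It recovered 92% of 100 genes changed by a log2 fold of 1 and 68% of 100 changed by 0.5, with 3 false calls among 163. Only these genes were changed, and they were drawn from a higher mean FPKM than the filter required. In the data 16.2% of genes were called lower and 16.1% higher. The simulation held no sex-linked difference either, so its rates need not hold for the data.

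The members and lists were chosen with earlier results of these data known. Named are all members, up to 3 rises and 3 falls per pathway list, the most abundant markers per marker list, and Xist and Y-linked genes. Furin, Rcan1, Dll4 and Prox1 were chosen after their values were seen. For a gene with several rows, the protein-coding row with the highest mean was used. Alternatives were the pseudocount (1 or 0.01), the filter (1 or none), 3 scalings, no trend, limma-voom on recovered fragments, the replicate block, Xist as a covariate, no genes of chromosomes X and Y, each lung left out, and each gene left out of a reference list. The limma-voom fit used the library sizes implied by the FPKM. Promoter windows were read from RefSeq with Python 3.11.15 and pandas 2.3.3, and figures were drawn with matplotlib 3.10.9.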

Additional observations from a re-analysis of the deposited data

Results flagged for a closer look

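In each group of 5 lungs, the highest and lowest values of the 10 genes and 6 ratios were checked for a lung far from the others, 32 groups in all, of which chance flags about 1 in 20. It was found in 2. Vegfb in IncPBF lung 3 was at 12.1 FPKM, above the other IncPBF lungs. Nrp2 in sham lung 3 was at 5.85 FPKM, below the other sham lungs, which were at 8.20 to 8.92 FPKM. Without sham lung 3 the log2 difference of Nrp2 went from 0.16 to 0.06 and did not pass the test. Sham lung 3 was also the sham lung lowest in Vegfa, Vegfd, Flt1, Kdr, Flt4 and Nrp1 and highest in Pgf.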

How the results depend on the processing

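Counts are calls at a limma adjusted p under 0.05. Taking sex-linked expression into account moved them most. With log2 Xist as a covariate, and likewise without the IncPBF lungs high in Xist, 0 members were called lower and 0 higher, in the direct comparison, relative to the pan-endothelial level and relative to the AT1 level; without those lungs the lone IncPBF lung was assumed to vary like the sham lungs. Of the pathway genes 10 were then lower and 3 higher with the covariate, and 2 lower and 0 higher without those lungs. Those fits have fewer lungs, or a term that goes with the groups, and the cause was not tested. Under the other alternatives the 6 falls of the direct comparison were kept, except that X-linked Vegfd was not in the fit without genes on chromosomes X and Y. The count of members called higher, Pgf alone, was 0 with no filter on low values, and ran from 0 to 1 with each lung left out. Of members lower than the AT1 level, Vegfd alone, the count was 0 with a pseudocount of 1, with the replicate block and with Ager, Hopx, Akap5, Aqp5 or Igfbp2 left out of the list, and 0 to 1 with each lung left out. Differences near 0 relative to the AT1 level changed sign: Vegfc was -0.0325 with the covariate, -0.0214 without the lungs high in Xist, and -5.36e-05, -0.0139, -0.0296 and -0.0665 without Ager, Rtkn2, Clic5 and Lmo7, and ran from -0.0177 to 0.0395 with each lung left out; Flt1 was -0.0102, -0.0259 and -0.0627 without Rtkn2, Clic5 and Lmo7, and ran from -0.0226 to 0.0669; Flt4 was 0.0164 without Igfbp2; Nrp1 was 0.00635, 0.0216 and 0.0973 without Akap5, Aqp5 and Igfbp2, and ran from -0.0485 to 0.0516. None of these passed the test in either sign. Vegfa relative to the AT1 level passed without Igfbp2, at 0.27, and Flt1 relative to the pan-endothelial level did not pass without Egfl7. The 6 ratios kept their direction and their side of the threshold with each lung left out. They kept their direction in IncPBF lung 1 alone, where 1 lung against 5 allows no test at the threshold, and they were not fitted with the Xist covariate. The replicate numbers did not pair the lungs: same-numbered lungs had correlations of -0.067 to 0.085 in their deviations from the group means, and 2 of 5 correlated best with their own number. With the replicate block 6 members were lower and 1 higher, as without it, and Vegfc was no longer called relative to the pan-endothelial level (limma, adjusted p = 0.0648). With 5 lungs a group, the log2 differences of Kdr and Nrp2 carry an SE of 0.12 and 0.10, and a missed threshold does not show equal levels.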

Other observations

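The genes most like Vegfa and Kdr were sought among the 15388 tested genes, by the Pearson correlation of deviations from the group means over the 10 lungs. For Vegfa they were Gm49376 (r = 0.95), 1810062O18Rik (0.92) and Slc20a1 (0.90), a phosphate carrier that was higher in IncPBF, at 6.93 ± 0.728 against 5.15 ± 0.355 FPKM (SD, n = 5). For Kdr they were Specc1 (0.98), Kif26b (0.97) and Cdc42bpg (0.97), a kinase that was lower in IncPBF, at 17.5 ± 0.914 against 26.6 ± 5.89 FPKM. Such maxima over many genes are given as a description, without a test.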
